A study of Mus musculus with 35 samples.

Results

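The genes described here are 10 members of the oxidative stress response in the mouse hippocampus: Hmox1, Nqo1, Srxn1, Gclm, Gclc, Txnrd1, Slc7a11, Akr1b8, Mt1 and Mt2. They were chosen by symbol, as textbook targets of the transcription factor NRF2 and the inducible metallothioneins, and are 10 of 32544 genes in the deposited counts. The choice was made with earlier results of these data known. Hippocampal RNA was taken from male C57BL/6JOlaHsd mice, 7 to 9 weeks old when enrolled, that had received kainic acid (IAKA) or its PBS vehicle through a cannula into the amygdala. Kainic acid is a glutamate receptor agonist whose injection there starts status epilepticus, and lorazepam followed to limit the seizures. Each library is 1 mouse. The figures write KA for IAKA. RNA precipitated with an antibody against N6-methyladenosine (m6A), a base modification of mRNA, was sequenced at 24 hours (5 IAKA mice, 3 PBS mice) and at 2 weeks (6 IAKA mice, 5 PBS mice). Input, the total RNA before precipitation, was used where a library held at least 100000 counts, which left 3 IAKA mice and 1 PBS mouse at 24 hours and 6 IAKA and 3 PBS mice at 2 weeks. The comparison asked of each gene was whether its counts differed between IAKA and PBS mice at each time, in each kind of library. Every m6A value below is an abundance in the precipitated RNA, which depends on how much of the transcript there was as well as on how much of it carried the mark.

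NRF2, encoded by Nfe2l2, is held in the cytoplasm by KEAP1 and degraded. Oxidants and electrophiles modify KEAP1, and NRF2 then enters the nucleus, pairs with small MAF proteins and binds antioxidant response elements. Its targets make glutathione, reduce thioredoxin and peroxiredoxins, break down heme and detoxify quinones and carbonyls. Metallothioneins are small cysteine-rich proteins that bind zinc and copper and react with oxidants. Mt1 and Mt2 are induced by zinc through the metal sensor MTF1, which binds metal response elements, and in brain they are best known from astrocytes, whereas Mt3 is the neural form.

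The m6A libraries held 1652933 to 34564536 counts and the 13 input libraries used held 3057578 to 12694434. The 2 smallest m6A libraries were those of IAKA mice 67 and 98 at 24 hours. Both libraries of IAKA mouse 8 at 24 hours and the m6A library of IAKA mouse 6 at 2 weeks stood apart. Mitochondrial transcripts took 16.4% to 17.5% of their counts and 27003 to 28574 genes were detected in them, against 1.41% to 11.1% and 16813 to 25717 genes in the other 29 libraries. The column names of the m6A libraries start with 3, 4 or 5, and these library sets were not balanced over the groups. Set 3 holds IAKA mice only (mice 67, 98 and 8 at 24 hours and mice 42, 5 and 6 at 2 weeks). These mice therefore have no control in their own set. Set 5 at 24 hours and set 4 at 2 weeks hold PBS mice only. Values within 1 set are therefore given for the members with the highest fold changes. Input columns either start with Input or have no prefix. Among the 13 used, the former hold IAKA mice only (mouse 8 at 24 hours and mice 6, 7 and 9 at 2 weeks), and all PBS mice are in the latter. The 3 input libraries left out for low counts also start with Input. They are those of PBS mice 71 and 73 and IAKA mouse 97 at 24 hours. Nothing in the sources used here says what the prefixes stand for. In whole tissue, fewer cells of a type and less RNA per cell cannot be told apart.

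The inducible metallothioneins are neighbours. On GRCm38 (mm10) Mt2 lies on chromosome 8 from 94172618 to 94173567 and Mt1 from 94178883 to 94180327, and the start sites of their RefSeq promoter windows are 6471 bases apart on the same strand. Hmox1 (75093618 to 75100593) and Nqo1 (107388225 to 107403205) are on chromosome 8 as well, while Srxn1 lies on chromosome 2 (152105524 to 152111376) and Akr1b8 on chromosome 6 (34354146 to 34368461). Promoter windows of 300 bases, from 250 before to 50 after a start site, were matched for 8 of the 10 members, and Hmox1 and Gclc are not among them. The windows were searched on both strands for the core of the antioxidant response element, TGACNNNGC, and for metal response element cores TGCACNC and TGCGCNC, where N is any base. Of all 32851 windows, 12.4% held the first and 25.7% held at least 1 of the metal cores. The 250 bases before the start are shown for the metallothioneins and for Srxn1 and Akr1b8, which together with Hmox1 had the 5 highest fold changes among the members in m6A libraries at 24 hours. Capitals mark matches to any of these cores, and positions are counted from the start site of the window. For Mt1, Gclm, Slc7a11 and all Txnrd1 windows except that at the gene's start, that start site lies inside the gene's own span. The Txnrd1 window that held the antioxidant core is among them. The Mt1 stretch from 94178883 on is therefore part of the span given above.
Mt2, chr8:94172368-94172617, plus strand: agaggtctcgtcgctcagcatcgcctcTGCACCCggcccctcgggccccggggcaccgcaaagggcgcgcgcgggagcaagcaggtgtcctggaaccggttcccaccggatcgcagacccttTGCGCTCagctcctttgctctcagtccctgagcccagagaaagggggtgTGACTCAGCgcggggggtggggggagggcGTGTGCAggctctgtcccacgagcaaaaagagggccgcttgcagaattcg
Mt1, chr8:94178839-94179088, plus strand: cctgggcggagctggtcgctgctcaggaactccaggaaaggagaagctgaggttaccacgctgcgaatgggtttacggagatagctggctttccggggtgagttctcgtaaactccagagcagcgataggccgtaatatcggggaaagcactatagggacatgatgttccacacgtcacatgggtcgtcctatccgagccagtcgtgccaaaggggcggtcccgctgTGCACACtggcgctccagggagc
Srxn1, chr2:152105274-152105523, plus strand: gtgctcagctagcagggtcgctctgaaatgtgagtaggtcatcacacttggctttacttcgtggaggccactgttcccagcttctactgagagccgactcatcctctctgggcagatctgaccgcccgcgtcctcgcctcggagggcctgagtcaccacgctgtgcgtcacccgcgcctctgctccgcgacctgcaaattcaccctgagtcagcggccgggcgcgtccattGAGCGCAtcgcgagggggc
Akr1b8, chr6:34353896-34354145, plus strand: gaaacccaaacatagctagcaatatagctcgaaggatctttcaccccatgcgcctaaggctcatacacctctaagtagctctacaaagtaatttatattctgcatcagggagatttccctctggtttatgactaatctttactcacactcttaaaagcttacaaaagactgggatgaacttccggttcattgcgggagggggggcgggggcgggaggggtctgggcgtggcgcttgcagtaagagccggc
The Mt2 window held 4 metal cores (1 of them after the start), a number reached or passed in 0.518% of all windows, and 1 antioxidant core, TGACTCAGC, which begins 79 bases before the start. The Mt1 window held 3 metal cores, which 1.97% of windows reached or passed, with 1 of them before the start and the others among the 50 bases after it. The Srxn1 window held 1 core of each kind, the antioxidant one after the start. The Akr1b8 window held neither, and of the remaining windows those of Gclm and 1 of the 3 for Txnrd1 held the antioxidant core. The Gclm window also held 3 metal cores, as many as that of Mt1, with 2 of them before the start. A match is a run of letters and no evidence of binding, and a missing match speaks only of these windows and these exact strings. A stretch that differs from a core in a single base is left unmarked, such as tgagtcagc before the Srxn1 start.

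In m6A libraries at 24 hours, Akr1b8, Hmox1, Mt1 and Mt2 were more abundant in every IAKA mouse than in any PBS mouse. Such separation was seen for 4 of the 10 members and for 2.62% of the 16470 genes tested. None of the 10 members passed edgeR's quasi-likelihood test at an adjusted P of 0.05, a threshold that 0.00607% of all genes passed, which is the single gene Tm4sf1 (no member, named after its value was seen). At an unadjusted P under 0.05 there were 5 members (Akr1b8, Hmox1, Mt1, Mt2 and Srxn1), all higher after IAKA, against 5.31% of all genes. The median log2 fold change of the members was 0.70, beside 0.08 over all genes tested.

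Akr1b8, an aldo-keto reductase that reduces reactive aldehydes, had by far the highest fold change among the members. Its abundance was 10.6, 3.03, 8.47, 7.50 and 2.60 CPM, counts scaled to a library total of 1000000, in IAKA mice 67, 98, 97, 79 and 8, and 0.359, 0.143 and 0.517 CPM in PBS mice 71, 73 and 1. Every IAKA mouse lay well above every PBS mouse, although the PBS values rest on 10, 2 and 7 counts and that of IAKA mouse 98 on 5. The mean was 6.44 ± 3.50 CPM (SD, n = 5) after IAKA and 0.339 ± 0.188 CPM (n = 3) after PBS. The log2 fold change was 4.15 ± 0.63 (SE), the 6th highest of 16470 genes, with an adjusted P of 0.103 by edgeR. DESeq2 gave 4.16 with an adjusted P of 2.0e-08 and voom with sample weights 4.40 with 3.4e-05. DESeq2 called no other member, at a rate of 0.947% of all genes, whereas voom called 4 members (Akr1b8, Mt1, Mt2 and Srxn1) at a rate of 6.81%. Within library set 4, which held IAKA mice 97 and 79 and PBS mice 71 and 73, the log2 fold change of Akr1b8 was 4.72 ± 0.39 with an adjusted P of 0.0063, and that of Mt1 and Srxn1 also passed in this set (2.11% of all genes did). Without IAKA mouse 8, whose libraries stood apart, it was 4.34 with an adjusted P of 0.0133. Its relatives Akr1b3, Akr1b7 and Akr1b10 share sequence with it and reads could have been divided among them. Akr1b10 was 6.58 ± 1.78 CPM after IAKA and 7.92 ± 1.01 CPM after PBS, and Akr1b7 was at or below 0.594 CPM in every library of these groups.

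**Figure D1:**
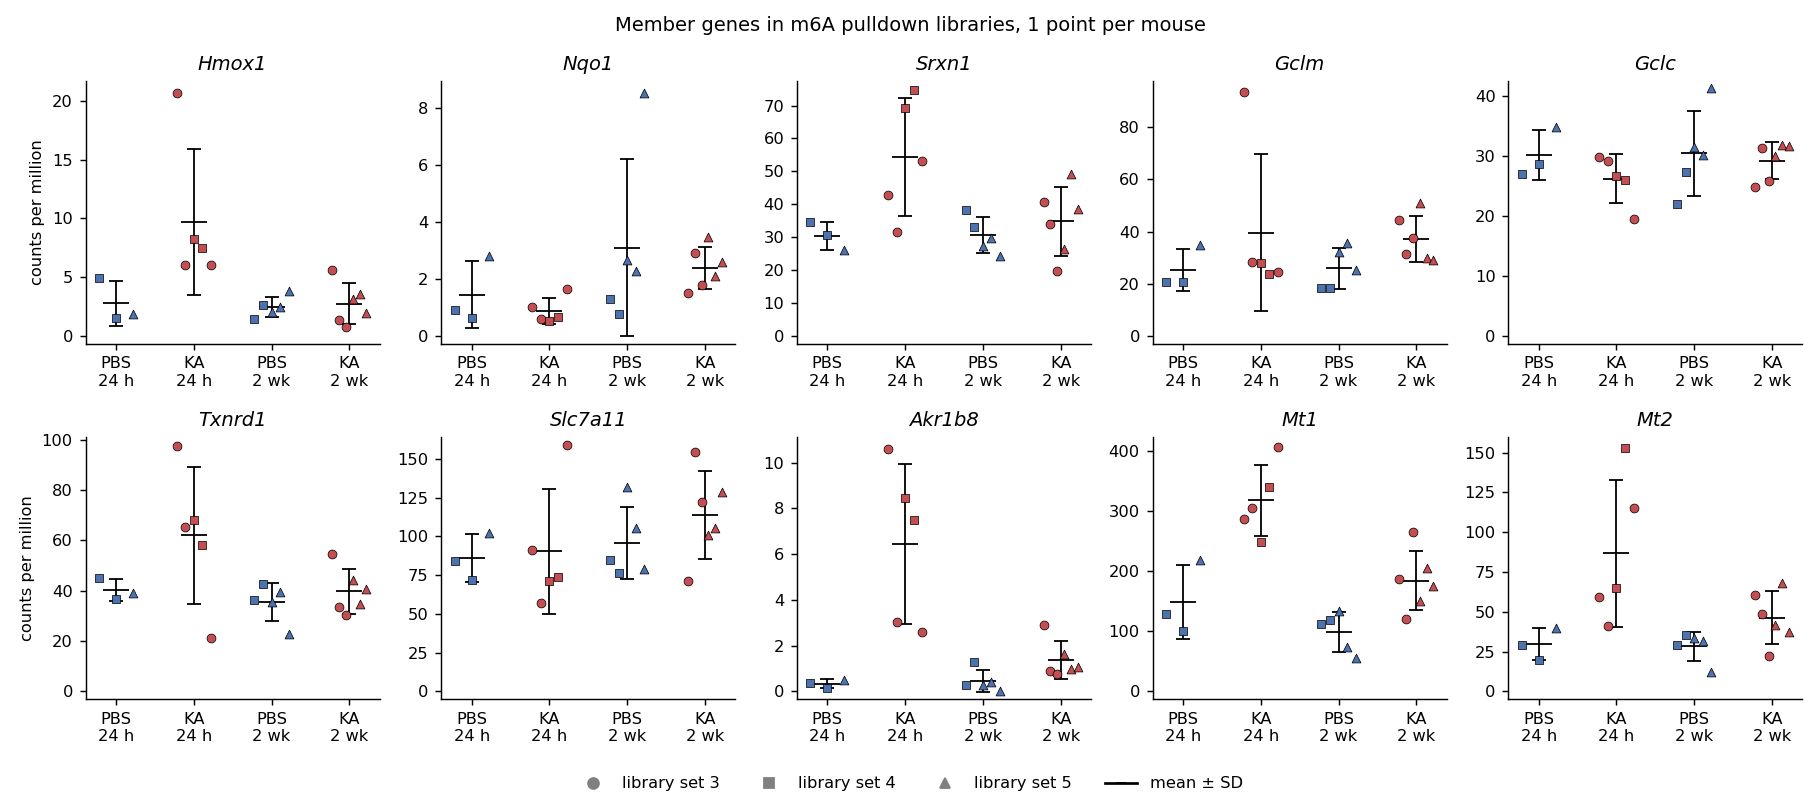
CPM of the 10 members in the 19 m6A libraries, 1 point per mouse, with mean ± SD by group; the shape marks the library set. At 24 hours the 5 IAKA points of Akr1b8, Hmox1, Mt1 and Mt2 lie above all 3 PBS points, and at 2 weeks the groups overlap for all 10 members.

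Hmox1 encodes heme oxygenase, which opens the heme ring to biliverdin, iron and carbon monoxide. It stood at 20.7 CPM in IAKA mouse 67 and between 6.01 and 8.24 CPM in the other IAKA mice, beside 4.95, 1.502 and 1.85 CPM in the PBS mice. The groups do not overlap, but PBS mouse 71 comes close to the lowest IAKA mouse. The log2 fold change was 1.74 ± 0.52 with an adjusted P of 0.567, and 1.13 ± 0.45 within library set 4. It was 2.41 without PBS mouse 71 and 0.92 with voom. The summed level of 6 markers of infiltrating myeloid cells, a known source of heme oxygenase in injured tissue, was 21.7 to 97.6 CPM after IAKA and 12.5 to 36.8 CPM after PBS. All 6 of these markers were tested and had positive log2 fold changes (median 1.54), none was called by edgeR and none was at 0 throughout a group. Their part in the Hmox1 values was not tested. Nqo1, a quinone reductase, was at 0.520 to 1.63 CPM in IAKA mice and 0.644 to 2.80 CPM in PBS mice. These levels rest on 1 to 22 and 9 to 38 counts and overlap throughout.

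The thiol enzymes Srxn1 and Txnrd1 differed less. Srxn1, the sulfiredoxin that repairs overoxidised peroxiredoxins, was at 42.9, 31.5, 69.3, 74.7 and 53.1 CPM in IAKA mice 67, 98, 97, 79 and 8. It was at 34.6, 30.6 and 25.98 CPM in PBS mice 71, 73 and 1, so that IAKA mouse 98 alone lay within the PBS range. Its log2 fold change was 0.84 ± 0.32 (adjusted P = 0.818), and 1.02 ± 0.14 within library set 4 (adjusted P = 0.022). Txnrd1, the cytosolic thioredoxin reductase, ran from 58.3 to 97.5 CPM in 4 IAKA mice, above the PBS values of 36.6 to 45.2 CPM, but was 21.4 CPM in IAKA mouse 8. Across all 5 mice its log2 fold change was 0.55 ± 0.34 (adjusted P = 0.983).

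The values of the glutathione genes overlapped between the groups at 24 hours. Gclm, the modifier subunit of glutamate-cysteine ligase, was 93.5 CPM in IAKA mouse 67 and 23.8 to 28.4 CPM in the other IAKA mice, against 20.7 to 34.7 CPM after PBS. The mean of the IAKA mice, 39.6 ± 30.2 CPM, is therefore set by that mouse, and without it the log2 fold change went from 0.56 to 0.05. Gclc, the catalytic subunit, was 26.2 ± 4.06 CPM after IAKA and 30.2 ± 4.14 CPM after PBS, a log2 fold change of -0.24 ± 0.22. Slc7a11, the cystine transporter that supplies the precursor, was 90.3 ± 40.2 and 86.0 ± 15.5 CPM, with the highest value, 159 CPM, in IAKA mouse 8. Leaving that mouse out turned the log2 fold change of Slc7a11 from 0.15 to -0.34.

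Both metallothioneins were more abundant in every IAKA mouse than in any PBS mouse. Mt1 was 286, 305.5, 249, 340 and 406 CPM in IAKA mice 67, 98, 97, 79 and 8 and 129, 99.7 and 218 CPM in PBS mice 71, 73 and 1. Mt2 was 59.6, 41.1, 64.9, 153 and 115 CPM in the same IAKA mice and 29.4, 19.96 and 40.15 CPM in the PBS mice. For both genes PBS mouse 1, the only library of set 5 at this time, was the highest control, and for Mt2 it lay just under IAKA mouse 98. The log2 fold change was 1.13 ± 0.37 for Mt1 (adjusted P = 0.630) and 1.59 ± 0.50 for Mt2 (adjusted P = 0.587), and within library set 4 it was 1.25 ± 0.18 (adjusted P = 0.0263) and 2.03 ± 0.43 (adjusted P = 0.0944). The summed level of 5 reactive astrocyte markers was 457 to 3018 CPM after IAKA and 315 to 608 CPM after PBS. All 5 were tested, with a median log2 fold change of 2.38 and 0 called by edgeR, and none was at 0 throughout a group. The summed level of 6 general astrocyte markers was 795 to 3313 CPM after IAKA and 2830 to 3432 CPM after PBS, and 2 of these 6 had positive log2 fold changes. Whether either list contributes to the metallothionein values was not tested.

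At 2 weeks no member's m6A values separated the groups, as those of 0.260% of 16157 genes did with IAKA higher. edgeR called 0 members and 0 genes (0%) at an adjusted P of 0.05, and at an unadjusted P under 0.05 it gave 4 members (Akr1b8, Mt1, Mt2 and Gclm) and 5.01% of all genes. DESeq2 and voom called no member, at rates of 0.0928% and 0.0124%. The median log2 fold change of the members was 0.29, beside a median over all genes that rounds to 0.00, and 9 of 10 were above 0, against 49.8% of all genes.

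Mt1 at 2 weeks had a lowest, median and highest value of 121, 181 and 265.5 CPM in the 6 IAKA mice, against 112, 119, 134, 73.8 and 55.2 CPM in PBS mice 50, 78, 2, 3 and 4. IAKA mouse 5 alone lay inside the PBS range, and the log2 fold change was 1.00 ± 0.28 (adjusted P = 0.875). Mt2 ran from 22.5 through a median of 45.4 to 67.8 CPM in IAKA mice and from 12.5 to 35.3 CPM in PBS mice. Here IAKA mouse 6, whose library stood apart, was the one within the control range, and the log2 fold change was 0.76 ± 0.28 (adjusted P = 0.875). Within library set 5 the metallothioneins gave 1.09 ± 0.31 and 0.98 ± 0.37. The summed reactive astrocyte markers were 189 to 3110 CPM after IAKA and 218 to 488 CPM after PBS at this time, and their part in these values was not tested.

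Akr1b8 at 2 weeks ran from 0.760 through 1.03 to 2.92 CPM in IAKA mice. The PBS mice were at 0.300, 1.27, 0.288, 0.427 and 0 CPM, the last being mouse 4 with 0 counts, which allows up to 0.456 CPM at its depth (3 counts, counting error only). PBS mouse 78 lay above 4 of the 6 IAKA mice, and the log2 fold change was 1.64 ± 0.60 (adjusted P = 0.875), 2.35 without that PBS mouse and 2.19 ± 0.74 within library set 5. Gclm was 37.1 ± 8.92 CPM (n = 6) after IAKA and 25.9 ± 7.74 CPM (n = 5) after PBS, a log2 fold change of 0.60 ± 0.24. Its control values were 18.4 and 18.5 CPM in library set 4 and 25.1 to 35.5 CPM in set 5, and within set 5 the log2 fold change was 0.32 ± 0.28. The other 6 members had log2 fold changes between -0.27 (Nqo1) and 0.34 (Slc7a11), with standard errors of 0.19 to 0.51. Hmox1 was 2.73 ± 1.75 CPM after IAKA and 2.46 ± 0.879 CPM after PBS, with 5.58 CPM in IAKA mouse 42 as its highest value. Nqo1 had its highest value, 8.51 CPM, in a PBS mouse (mouse 4).

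**Figure D2:**
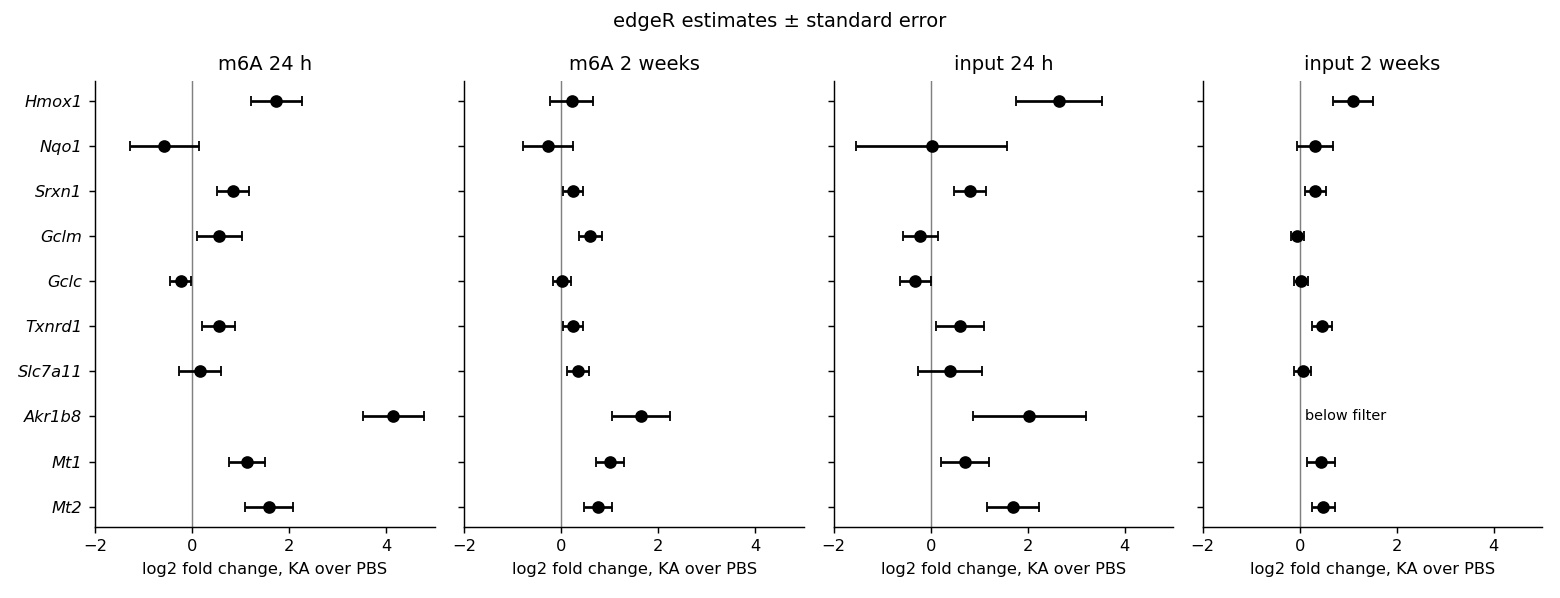
Log2 fold change of IAKA over PBS with its standard error for each member in the 4 comparisons; Akr1b8 did not pass the filter on low counts in input at 2 weeks. The widest bars are those of input at 24 hours, which has 1 PBS library, and Akr1b8 at 24 hours in m6A libraries lies farthest from 0 at 4.15.

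The change from 24 hours to 2 weeks was tested as the IAKA effect at 24 hours minus that at 2 weeks over all 19 m6A libraries. No member was called by edgeR, nor was any gene but Tm4sf1 (0.00573% of 17440), and 2 members and 2.45% of all genes had an unadjusted P under 0.05. These members were Akr1b8, whose effect was larger at 24 hours by 2.52 ± 0.91 on the log2 scale, and Hmox1, larger by 1.52 ± 0.71 (adjusted P = 1.00 for both). Without PBS mouse 78 at 2 weeks the Akr1b8 difference was 1.80, and that of Hmox1 was 2.13 without PBS mouse 71 at 24 hours and 0.87 with voom. Voom called the Akr1b8 difference (2.90, adjusted P = 0.0229, a call made for 0.356% of all genes) and DESeq2 did not. For Mt1 the difference was 0.12 ± 0.46, so a smaller or larger effect at 2 weeks could not be told from none. In order of mean Mt1 level, IAKA mice at 24 hours (317 ± 59.5 CPM) were followed by IAKA mice at 2 weeks (184 ± 49.7 CPM), PBS mice at 24 hours (149 ± 61.6 CPM) and PBS mice at 2 weeks (98.9 ± 33.1 CPM). Ranges of neighbours in this order overlapped in each case. For Akr1b8 the order was IAKA at 24 hours (6.44 ± 3.50 CPM), IAKA at 2 weeks (1.38 ± 0.814 CPM), PBS at 2 weeks (0.457 ± 0.479 CPM) and PBS at 24 hours (0.339 ± 0.188 CPM), again with overlap between all neighbours.

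In input at 24 hours Hmox1, Akr1b8 and Mt2 had the highest fold changes among the members, but the comparison rests on 1 PBS library, which edgeR had to assume varies like the 3 IAKA libraries. Hmox1, Srxn1, Akr1b8 and Mt2 were above that PBS mouse in all 3 IAKA mice, 4 of 10 members against 10.6% of 18918 genes. Gclm and Gclc were below it in all 3, 2 of 10 members against 30.8% of genes. edgeR called 0 members and 0 genes (0%), and at an unadjusted P under 0.05 it gave Hmox1 and Mt2 and 2.28% of all genes. DESeq2 called no member (0.0581% of all genes), while voom called Hmox1 and Mt2 (7.83% of all genes). The median log2 fold change was 0.66 for the members and 0.30 for all genes, and with scaling to library size alone these were 0.38 and 0.02, so the values below are best read relative to such a shift.

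Hmox1 in input was 12.9, 4.35 and 5.04 CPM in IAKA mice 67, 98 and 8 and 1.42 CPM in PBS mouse 1. Mouse 67 was the highest here as it was in the m6A libraries, and the log2 fold change was 2.64 ± 0.89 (adjusted P = 0.991). Mt2 was 57.3, 32.25 and 55.4 CPM against 18.35 CPM, a log2 fold change of 1.69 ± 0.54, whereas Mt1 was 148, 105 and 173 CPM against 107 CPM, with mouse 98 just under the control. CPM leaves out the scaling factors of the fit, which were 0.9996 for mouse 98 and 1.157 for PBS mouse 1. With them the log2 fold change of Mt1 was 0.71 ± 0.50. Akr1b8 was 3.27, 2.56 and 1.61 CPM against 0.709 CPM, on 9 to 18 counts a library, and its log2 fold change was 2.04 ± 1.16. Srxn1 was 37.8, 35.8 and 32.8 CPM against 24.6 CPM. The summed reactive astrocyte markers were 316 to 1865 CPM after IAKA and 230 CPM in the PBS mouse, and the infiltrating myeloid markers 24.8 to 68.6 CPM and 17.7 CPM, and their part in these values was not tested. Leaving out mouse 8, which is also the restriction to library columns without a prefix, gave an adjusted P of 0.0491 for Hmox1 (log2 fold change 2.84), 0.0350 for Srxn1 (0.79) and 0.0488 for Mt2 (1.503). With 2 IAKA mice against 1 PBS mouse, that fit called 13.0% of the genes it tested.

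**Figure D3:**
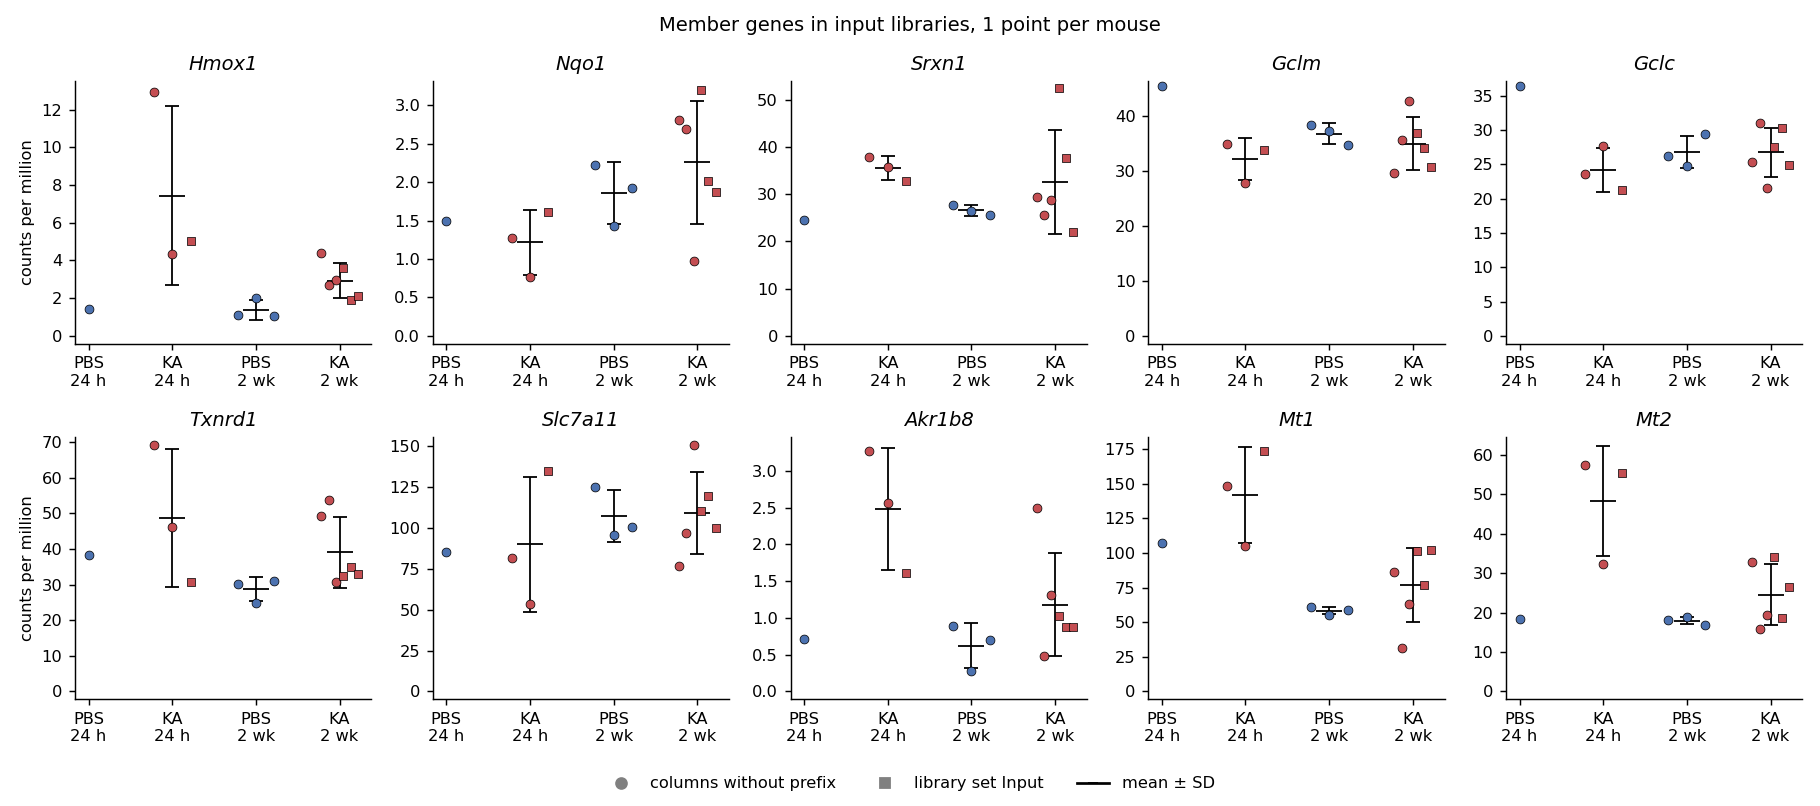
CPM of the 10 members in the 13 input libraries used, 1 point per mouse, with mean ± SD where a group has more than 1 library; the shape tells columns whose names start with Input from those without a prefix. Hmox1, Srxn1, Akr1b8 and Mt2 lie above the single PBS mouse at 24 hours in all 3 IAKA mice, and at 2 weeks every member's groups overlap.

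In input at 2 weeks no member was called by edgeR (0 genes in all, 0%), and Hmox1 and Txnrd1 had an unadjusted P under 0.05, as did 14.1% of 13752 genes. DESeq2 and voom called 0.844% and 2.60% of genes and no member. Akr1b8, at 1 to 4 counts in the PBS mice, did not pass the filter, and none of the other 9 members separated the groups (IAKA was higher throughout for 2.64% of genes). Hmox1 was 4.37, 2.69, 2.94, 3.58, 1.89 and 2.12 CPM in IAKA mice 42, 21, 5, 7, 9 and 6 and 1.11, 2.00 and 1.05 CPM in PBS mice 2, 3 and 4. IAKA mouse 9 alone lay under PBS mouse 3, and the log2 fold change was 1.10 ± 0.41 (adjusted P = 0.296) on 5 to 28 counts a library. The summed infiltrating myeloid markers were 17.3 to 36.2 CPM after IAKA and 15.97 to 21.3 CPM after PBS, and the reactive astrocyte markers 571 to 2544 CPM and 185 to 257 CPM. The sum of 6 microglia markers was 97.2 to 215 CPM after IAKA and 69.3 to 95.5 CPM after PBS. In the other comparisons of IAKA with PBS this microglia sum overlapped between the groups. None of these lists was tested as a source of the Hmox1 values. Txnrd1 was 39.0 ± 9.89 CPM (n = 6) after IAKA and 28.7 ± 3.41 CPM (n = 3) after PBS, a log2 fold change of 0.46 ± 0.20 (adjusted P = 0.335). IAKA mice 42 and 21 held its 2 highest values, 49.3 and 53.7 CPM. Mt1 spanned 31.5 to 102.5 CPM after IAKA, on both sides of the PBS values of 55.6 to 60.85 CPM, and its log2 fold change was 0.44 ± 0.29. Among columns without a prefix (3 IAKA and 3 PBS mice) it was 0.10 ± 0.30, while Hmox1 was 1.34 ± 0.47 and Txnrd1 0.68 ± 0.22. With the library set as a block the median of the 9 members was 0.11 in place of 0.32.

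The IAKA effects in m6A and input libraries were then set against each other as an interaction. At 24 hours edgeR called 0 members and 0 of 22760 genes (0%), and no member and 0.347% of all genes had an unadjusted P under 0.05. The largest difference was that of Akr1b8, whose log2 fold change was 2.14 ± 1.05 higher in m6A libraries (adjusted P = 1.00), with 1 PBS library on the input side. With the replicate block, which pairs the libraries of a mouse, it was 1.14 ± 1.05. At 2 weeks 0 members and 0 of 16141 genes (0%) were called, and Gclm (0.65 ± 0.30 higher in m6A libraries, adjusted P = 0.807) was the member with an unadjusted P under 0.05, beside 4.06% of all genes. It was 0.15 with voom and 0.38 ± 0.27 with the replicate block. DESeq2 and voom called no member in either comparison.

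Within the 13 mice that had both libraries, Mt1 and Mt2 were the members most abundant in m6A relative to input. The log2 ratio of m6A over input CPM, with 0.5 added to each count, was above 0 in 12 of 13 mice for Mt1 (median 1.12, from -0.09 to 2.24) and in 11 of 13 for Mt2 (median 0.89, from -0.44 to 1.39). The medians of the other 8 members lay between -0.24 (Gclm) and 0.25 (Hmox1). PBS mouse 4 was the lowest for both metallothioneins and, with 0 m6A counts, for Akr1b8. Input was total RNA and the precipitated RNA is labelled as polyadenylated, so this ratio also carries any difference between those fractions. These CPM are not adjusted for the make-up of the libraries, and no ratio over all genes was taken. A log2 ratio of 0 is therefore no baseline of equal enrichment. Across the same mice, m6A and input CPM had a Spearman rho of 0.91 for Mt1, 0.89 for Srxn1, 0.88 for Slc7a11 and 0.74 for Akr1b8, but 0.16 for Gclm and 0.23 for Nqo1. These are descriptions over 13 mice in 4 groups, and the points share treatment and library set.

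**Figure D4:**
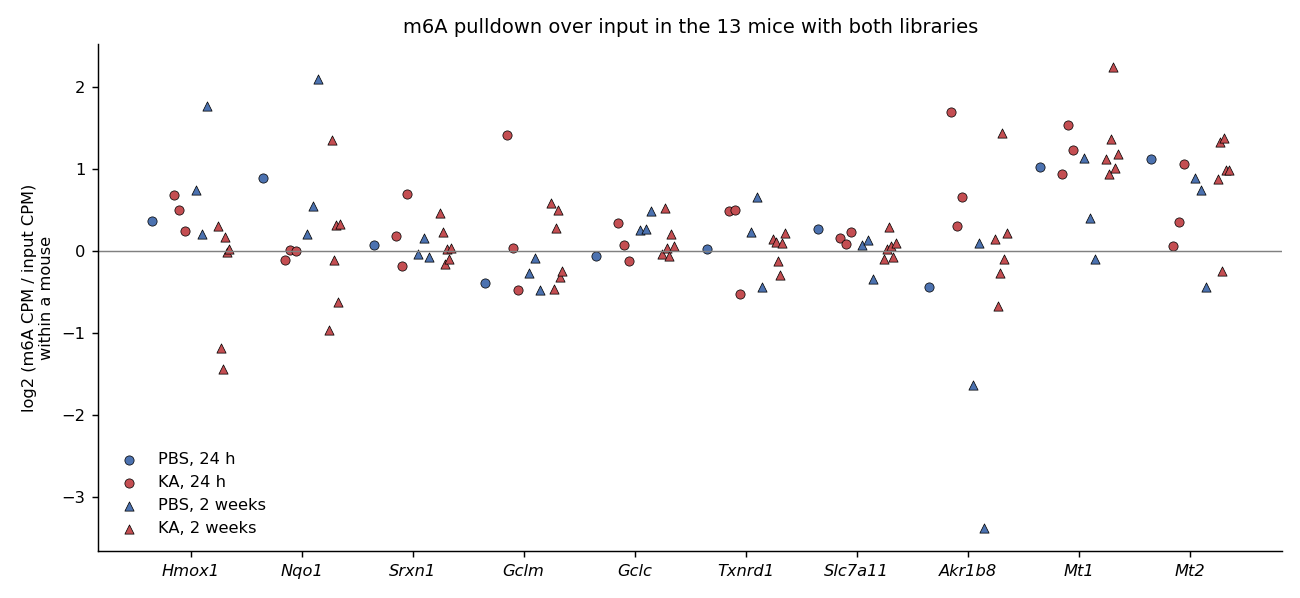
Log2 ratio of m6A to input CPM within each of the 13 mice that had both libraries, 1 point per mouse, by treatment and time. Mt1 lies above 0 in 12 mice and Mt2 in 11, while the other members scatter around 0; the lowest point, for Akr1b8, is a PBS mouse with 0 m6A counts.

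Over the 19 m6A libraries the members did not vary as 1 group. Log2 CPM of Akr1b8 had a Pearson correlation of 0.79 with Mt2, 0.75 with Mt1, 0.74 with Txnrd1 and 0.69 with Hmox1, and Mt2 with Srxn1 had 0.82. Nqo1 and Gclc correlated with each other at 0.71 and negatively with Srxn1, Txnrd1 and Akr1b8, from -0.44 to -0.69. The non-members most like the mean of Mt1 and Mt2 were Srgn, Rgs9, Naip2, Cd72 and Rbpj (0.89 to 0.91). Those most like the mean of the other 8 members, each scaled to unit variance, included Ccl6, Adgre1, Rplp0 and Tmem120a (0.80 to 0.89). The libraries share treatment groups, library sets and depth, so these values are given without a test.

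The wider NRF2 pathway gave no call. Of 42 other pathway genes, 41 were tested in m6A libraries at 24 hours, 26 had positive log2 fold changes (median 0.25) and 0 passed edgeR's adjusted threshold in either direction. Over all genes tested there, 58.0% were above 0, with a median of 0.08. At an unadjusted P under 0.05 edgeR gave 3 genes of this list, all higher after IAKA, and 5.31% of all genes. For m6A at 2 weeks it gave 1 gene of the list, higher, and 5.01% of all genes. For input at 2 weeks it gave 3 higher and 1 lower, and 14.1% of all genes. Nfe2l2, which encodes NRF2 itself, was 27.5 ± 12.1 CPM (n = 5) after IAKA and 15.7 ± 5.65 CPM (n = 3) after PBS, a log2 fold change of 0.77 ± 0.37 (adjusted P = 0.982). Keap1 was 45.1 ± 18.6 and 50.6 ± 18.5 CPM. At 2 weeks 26 of 41 were above 0 with a median of 0.09 and none was called, while 49.8% of all genes were above 0. Nfe2l2 was then 17.6 ± 4.51 CPM after IAKA and 17.0 ± 7.18 CPM after PBS. In input none of the list was called at either time, with medians of 0.17 (42 tested) and 0.09 (39 tested). The medians over all genes were 0.30 and 0.02, so at 24 hours the median of the list was the lower one. Nfe2l2 in input at 2 weeks was 13.6 ± 3.76 CPM after IAKA and 8.53 ± 0.938 CPM after PBS, with a log2 fold change of 0.67 ± 0.25 (adjusted P = 0.296).

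Nor did other genes of zinc handling pass the test. Of 12 such genes 10 were tested in each of the 4 comparisons of IAKA with PBS and 7 were above 0 in each, with medians between 0.07 and 0.32. Over all genes, 49.8% to 66.7% were above 0 in these comparisons, with medians between -0.001 and 0.30. Mt3, the neural metallothionein, was 71.1 ± 10.1 CPM after IAKA and 67.2 ± 24.7 CPM after PBS in m6A libraries at 24 hours, a log2 fold change of 0.08 ± 0.26. Its log2 fold change was 0.02 ± 0.25 at 2 weeks, and in input it was -0.40 ± 0.38 and 0.10 ± 0.15. Mtf1, the metal sensor, had log2 fold changes of 0.35 ± 0.33 and -0.22 ± 0.22 in m6A libraries at 24 hours and 2 weeks. The difference between Mt3 and its inducible relatives was not itself tested.

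**Figure D5:**
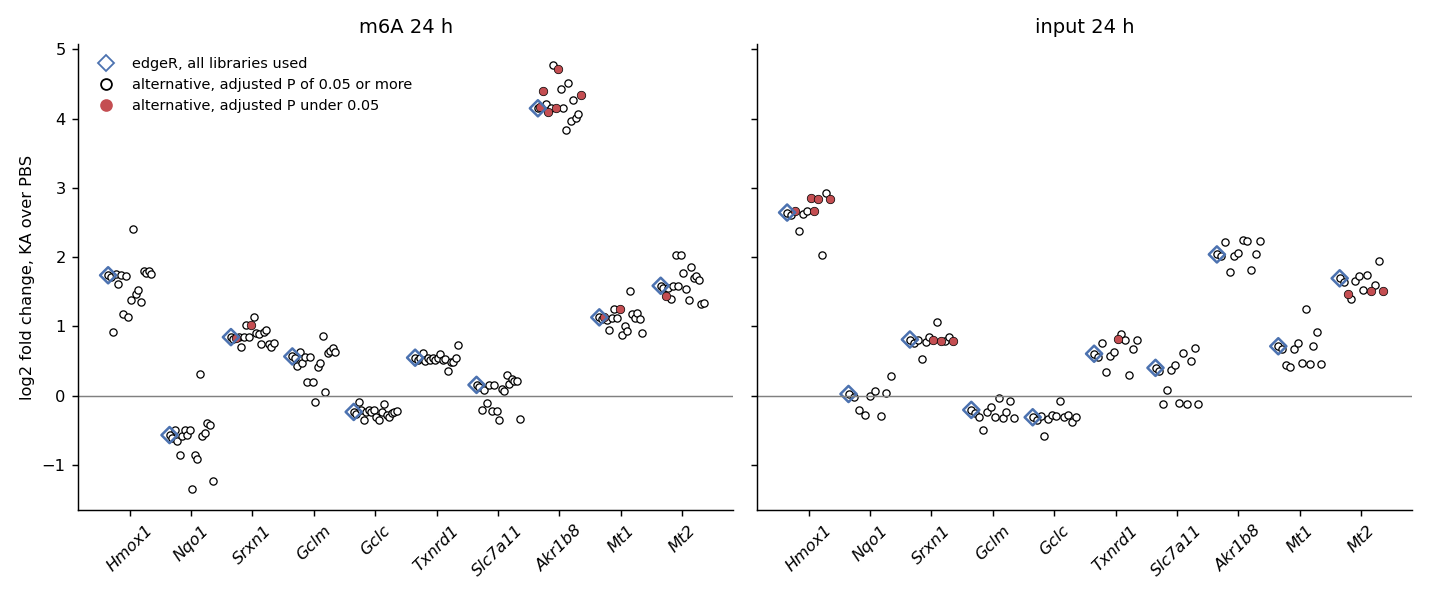
Log2 fold change of each member at 24 hours under every way of processing tried, in m6A libraries (left) and input (right); the diamond is the edgeR value reported in the text and filled points passed an adjusted P of 0.05. Akr1b8 in m6A libraries stays between 3.84 and 4.77 and passes in 6 of 17 alternatives, whose rates over all genes are given in the text. Hmox1 in input stays between 2.04 and 2.93, in fits that rest on 1 PBS mouse except for that of all labelled inputs. The input fits without IAKA mouse 8 and on columns without a prefix are the same.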

How the data were processed

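Hippocampal RNA of single mice was sequenced as m6A-precipitated RNA (19 libraries) and input (16 libraries). The authors deposited raw read counts per gene and sequencing lane, on mm10 per the processing notes. Not given in the sources used here are the aligner, the counter and whether counting used the strand that the library kit keeps. Reads of Mt1 and Mt2, or of Akr1b8 and its relatives, may have been divided between copies.

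The 4 lanes of each library were summed, 8 columns that name no sample were not used, and 3 input libraries under 100000 counts were left out. For 27 libraries the assay was inferred from the prefix of the column name. CPM is counts scaled to a library total of 1000000. Tests used edgeR 4.0.16 in R 4.3.3 (TMM, filterByExpr, robust quasi-likelihood fit, Benjamini-Hochberg over all genes tested, threshold 0.05), and DESeq2 1.42.0 and limma 3.58.1 (voom with sample weights) were alternatives. Scripts were tested on simulated data. P values judge a difference against the spread between mice. The SD and SE given after ± also include that spread, while the floor given for 0 counts covers counting error only. In input at 24 hours the only PBS library was assumed to vary like the IAKA libraries.

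The members, gene lists and tests were chosen with earlier results of these data known. All members are named, and from the lists Nfe2l2, Keap1, Mt3 and Mtf1, any called gene, and the 5 genes most alike in pattern to each set, of which 1 is not reported here. Promoter windows are RefSeq's on GRCm38.p6. Same-numbered m6A and input libraries come from the same mouse by their labels, and their deviations from the group means correlated at -0.02 to 0.89 over 12 mice. Alternatives within 1 library set and without mice whose libraries stood apart were added after seeing the data.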

Additional observations from a re-analysis of the deposited data

Results flagged for a closer look

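In 4 of 40 sets of values tested (a member in a group of 4 to 10 mice), 1 mouse lay far from the rest of its group, where chance flags about 1 in 20. Hmox1 was 20.7 CPM in the m6A library of IAKA mouse 67 at 24 hours and 6.01 to 8.24 CPM in the other 4. Gclm was 93.5 CPM in the same library, on 185 counts, and 23.8 to 28.4 CPM in the others. In the m6A library of PBS mouse 4 at 2 weeks, Nqo1 was 8.51 CPM against 0.780 to 2.66 CPM in the other PBS mice, and Mt2 was 12.5 CPM against 29.0 to 35.3 CPM.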

How the results depend on the processing

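With edgeR as reported, no member passed the adjusted threshold in any comparison, and for m6A at 2 weeks, input at 2 weeks and both differences between m6A and input none did under any alternative run. In m6A libraries at 24 hours DESeq2 called 1 member, voom 4 and library set 4 alone 3, at the rates over all genes given above. The fit with no filter on low counts called 1 (22 of 29787 genes) and the fit of all 19 m6A libraries 1 (31 of 17440 genes). Leaving out 1 mouse gave 0 to 1 (1 without IAKA mouse 8, where 45 of 16112 genes were called). In input at 24 hours the fit of all labelled inputs, which takes in libraries under 100000 counts, called 1 member and 75 of 12858 genes. Voom, the library set block and columns without a prefix (the same fit as without IAKA mouse 8) also called members. Each of these fits has 1 PBS mouse and called many genes besides the members, so their calls are not counted here. Their median log2 fold changes of the members were 0.60, 0.63 and 0.79, beside -0.06, -0.09 and 0.01 over all genes. For the time difference voom called 1. With the replicate block, which pairs the m6A and input libraries of a mouse, members called stayed at 0 at both times. Leaving out PBS mouse 1 in input at 24 hours was not run, because no control would remain. The cause of each change was not tested.

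Some log2 fold changes changed sign. In m6A libraries at 24 hours these were Gclm (-0.088 leaving out IAKA mice 8, 67 and 98) and Slc7a11 (-0.21 with voom, -0.11 with no filter, -0.22 with the library set block and within set 4, -0.36 without those mice). At 2 weeks they were Nqo1 (0.24 with voom) and Gclc (-0.057 with library size scaling, -0.086 with the set block, -0.066 within set 5). In input at 24 hours they were Nqo1 (-0.021 with DESeq2, -0.21 with voom, -0.28 with library size scaling, -0.011 with no filter, -0.29 with the set block) and Slc7a11 (-0.12 with voom, -0.11 with the set block, -0.12 without prefixed columns), and at 2 weeks Gclm (0.0067 with the set block, 0.0095 without prefixed columns) and Gclc (-0.010 with voom, -0.0025 with the set block). For the time difference they were Nqo1 (0.030 with the set block) and Gclm (0.23 with voom, 0.10 with library size scaling). For m6A minus input at 24 hours they were Nqo1 (0.28 with all labelled inputs), Srxn1 (-0.18 with voom, -0.074 with the replicate block, -0.20 with all labelled inputs), Gclc (-0.12 with the replicate block, -0.11 with all labelled inputs), Mt1 (-0.056 with the replicate block, -0.026 with all labelled inputs), Txnrd1 (0.27 with library size scaling) and Mt2 (0.15 with library size scaling), and at 2 weeks Nqo1 (0.037 with voom), Srxn1 (0.16 with voom, 0.11 with the replicate block) and Gclc (0.0045 with DESeq2, 0.079 with voom, 0.014 with no filter).

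Leaving out 1 mouse at a time spanned 0 for Nqo1 (-1.24 to 0.32) and Slc7a11 (-0.34 to 0.30) in m6A libraries at 24 hours, and for Hmox1 (-0.12 to 0.42), Nqo1 (-0.52 to 0.52) and Gclc (-0.10 to 0.14) at 2 weeks. In input it did so for Slc7a11 at 24 hours (-0.12 to 0.69) and for Gclm (-0.11 to 0.010), Gclc (-0.044 to 0.090) and Slc7a11 (-0.055 to 0.13) at 2 weeks. For the time difference it did so for Nqo1 (-1.13 to 0.59), Gclm (-0.56 to 0.26) and Mt1 (-0.12 to 0.52). For m6A minus input at 24 hours the ranges were -1.09 to 0.21 (Nqo1), -0.090 to 0.18 (Srxn1), -0.021 to 0.24 (Gclc), -0.31 to 0.35 (Txnrd1), -0.58 to 0.12 (Slc7a11) and -0.37 to 0.16 (Mt2), and at 2 weeks -0.82 to 0.20 (Nqo1), -0.18 to 0.079 (Srxn1) and -0.12 to 0.12 (Gclc). Akr1b8, with 2 to 10 counts in the PBS m6A libraries at 24 hours and 5 in that of IAKA mouse 98, and Nqo1 are limited by depth.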
